A study of Mus musculus with 6 samples.

Results

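Respiratory complex I is described here through the 40 genes of the deposited tables whose symbols name one of its nuclear-encoded subunits, out of 19458 genes listed. They were chosen by symbol alone: Nduf followed by a, ab, b, c, s or v and a number, with the Ndufaf assembly factors left out. All 40 passed the filter on low counts, as did 12774 genes in all. The libraries came from the gastrocnemius, the large calf muscle, of C57BL/6 mice aged 9 weeks: 3 libraries from Tmem182 knockout mice (tmem182-/-) and 3 from wild-type mice, and the labels give no other allele or treatment for either group. Tmem182 encodes a membrane protein of striated muscle, and the comparison asks which transcripts differ without it. How the deletion was made, the sex of the mice and whether each library came from 1 mouse are not given in the labels, so the tests here take the spread among these 6 libraries as their error, and that spread may be technical in part. In knockout libraries 2 and 3 the source label names a different Tmem gene, and the extraction text speaks of cultured muscle cells, while the genotype and tissue fields name tmem182-/- and skeletal muscle.

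Complex I, the NADH:ubiquinone oxidoreductase, is the largest enzyme of the respiratory chain and the main point at which electrons from NADH enter it. Its peripheral arm reaches into the mitochondrial matrix and holds the N module, where NADH is oxidised on a flavin, and the Q module, where a chain of iron-sulfur clusters hands the electrons to ubiquinone. Its membrane arm pumps protons and is built around subunits encoded by mitochondrial DNA, with nuclear-encoded subunits of the NDUFA, NDUFB and NDUFC families around them. Muscle fibres that work aerobically carry more of it than fast glycolytic fibres, and the gastrocnemius holds both kinds.

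Of the 40 genes, 10 were assigned to the N module, 6 to the Q module, 9 to the proximal and 11 to the distal part of the membrane arm. The remaining 4 match by name. Ndufa4 was first purified with complex I and is now counted with cytochrome c oxidase, and Ndufa4l2 is its hypoxia-inducible relative. Ndufb4c and Ndufa11b are sequence copies of Ndufb4 and Ndufa11. The 40 genes lie on 15 chromosomes, 2 of them (Ndufa1 and Ndufb11) on the X chromosome, and 21 overlap another annotated gene in GENCODE M21 on GRCm38. Whether strand was used in counting is not recorded in the labels, so reads from an overlapping gene on the other strand cannot be told apart. None of the 7 subunits encoded by mitochondrial DNA was listed under the symbols searched, so none was analysed here.

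The genotype labels were checked on Tmem182 (Entrez 381339, chromosome 1, 40805601 to 40856887, plus strand). It was at 6.23, 4.30 and 2.17 FPKM in knockout libraries 1, 2 and 3 and at 147.48, 121.39 and 120.97 FPKM in the wild-type libraries (FPKM, the deposited level scaled for transcript length and library depth). The log2 fold change was -5.02 (SE 0.30, Benjamini-Hochberg adjusted p = 0.00391 in the quasi-likelihood test of edgeR), and it was the only gene of the whole table past an adjusted p of 0.05. When knockout library 2 or wild-type library 3 was left out, its adjusted p was 0.0716 or 0.0529. The exact permutation test over the 6 libraries gave p = 0.1, which is as low as this test can go with 3 libraries a group. Library totals ran from 16212341 to 18672630 expected counts. Acta1, the skeletal muscle actin, was at 27925.9 to 34045.4 FPKM in all 6 libraries, so the tissue label fits its main marker. The 5 skeletal muscle markers, Acta1 among them, summed to 69633.5 FPKM in knockout library 1 and to 87413.3 to 100180 FPKM elsewhere. Knockout library 1 also stood apart in scaling, with a TMM factor of 1.19 against 0.933 to 1.04 in the other 5. TMM rescales each library so that most genes keep the same level. The deposited FPKM do not contain this step, and the log2 CPM and fold changes given here do.

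The 2 pairs of a gene and its copy cannot be read as independent measurements, because a read from the sequence they share can be counted for either. Ndufb4, an accessory subunit of the distal membrane arm, has 3 exons on the minus strand of chromosome 16 (37647170 to 37654453). Ndufb4c is a single exon on the minus strand of chromosome 15 (73809507 to 73809896), inside Mroh5, and GENCODE M21 annotates it as a processed pseudogene. Its 390 bases were identical to the Ndufb4 transcript in all 390 positions, with 0 mismatches. The stretch from the start codon on shows the identity (GENCODE M21 transcripts, GRCm38, chr16:37654240-37654359 and chr15:73809777-73809896, both minus strand, lower case since no base differs):
Ndufb4: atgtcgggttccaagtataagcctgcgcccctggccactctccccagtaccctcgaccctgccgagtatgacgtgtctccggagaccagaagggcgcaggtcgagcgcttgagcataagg
Ndufb4c: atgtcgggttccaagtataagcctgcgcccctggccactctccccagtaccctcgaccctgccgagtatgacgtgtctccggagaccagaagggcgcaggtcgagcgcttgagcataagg

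In GENCODE M21 only the 581 bases of the Ndufb4 transcript outside these 390 are absent from the annotated copy. The transcript models behind the deposited counts are not given, so which bases could separate the pair there is not known. The expected counts show the division. Ndufb4 had 1488.61, 1670.61 and 1600.54 counts (knockout) and 1451.97, 1556.78 and 1597.77 counts (wild type). Ndufb4c had 713.39, 650.39 and 642.46 against 694.03, 548.21 and 565.23. Neither gene had a whole number in any library, yet the sums of the pair were 2202, 2321, 2243, 2146, 2104.99 and 2163, within 0.01 of a whole number each time. Between 26.0% and 32.4% of the summed counts went to the copy. The row named Ndufb4c, at 73.4 ± 11.8 FPKM in wild type (SD, n = 3), therefore does not show that the copy itself was transcribed. Summed into 1 gene, the pair gave a fitted log2 change of 0.078 (SE 0.11), beside 0.05 (SE 0.12) for Ndufb4 and 0.15 (SE 0.10) for Ndufb4c counted apart.

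Ndufa11, a subunit of the proximal membrane arm, and its copy Ndufa11b were less alike. Ndufa11 has 4 exons on chromosome 17 (56717767 to 56722141, plus strand), and Ndufa11b is a single exon on chromosome 16 (22053510 to 22053933, plus strand), also annotated as a processed pseudogene. They matched in 402 of 424 bases (94.8%), with 22 mismatches and a longest identical run of 79 bases. The first 90 aligned bases hold 6 of these mismatches, shown in capitals (GENCODE M21 transcripts, GRCm38, chr17:56717846-56717935 and chr16:22053510-22053599, both plus strand):
Ndufa11: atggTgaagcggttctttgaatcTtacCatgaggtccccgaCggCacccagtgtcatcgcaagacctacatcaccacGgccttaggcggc
Ndufa11b: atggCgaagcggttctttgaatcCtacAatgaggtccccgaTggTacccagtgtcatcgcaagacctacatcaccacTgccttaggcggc

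Few counts went to this copy, 69.15, 1.6 and 38.88 in knockout libraries 1 to 3 and 28.59, 10.42 and 15.36 in wild-type libraries 1 to 3, or 0.104% to 3.42% of the sum of the pair. Each sum was a whole number here as well. The fold change of Ndufa11b (log2 0.99, SE 0.85, 95% interval -0.99 to 2.98) rests on these divided reads, and its levels in knockout libraries 1 and 2 were the highest and the lowest of all 6. Summed, this pair gave a fitted log2 change of -0.0036 (SE 0.13).

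**Figure D1:**
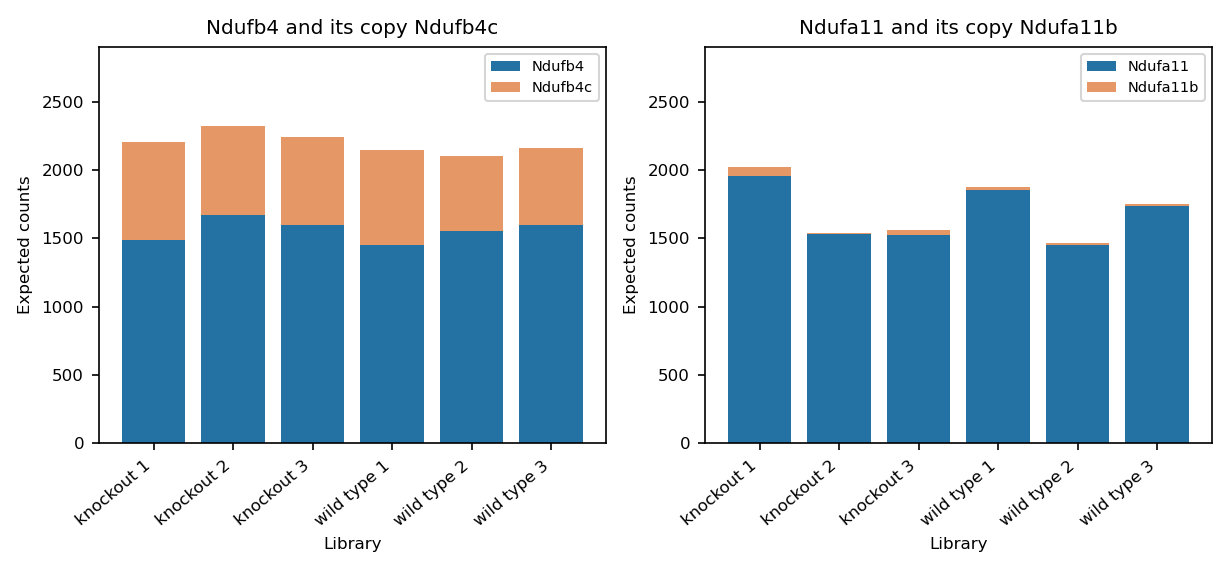
Expected counts per library (bars from 0) of Ndufb4 with its copy Ndufb4c (left) and of Ndufa11 with its copy Ndufa11b (right), stacked. The copy takes 26.0% to 32.4% of the Ndufb4 pair and 0.104% to 3.42% of the Ndufa11 pair.

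In wild-type muscle the 36 subunits assigned to a module had a median of 141.1 FPKM, and Ndufa11 was the lowest of them at 34.8 ± 5.19 FPKM (SD, n = 3). By expected counts Ndufa11 was not the lowest, with 1454.58 to 1953.85 per library. Ndufa1 had 441 to 647 counts per library and a wild-type mean of 60.4 FPKM. The low place of Ndufa11 therefore depends on the transcript length used for FPKM, which is not given. Of the 36, 23 lay between 100 and 300 FPKM. The 7 nuclear-encoded core subunits, those that carry out catalysis and have bacterial counterparts, had a median of 136.3 FPKM, and the 29 supernumerary subunits, which stabilise the enzyme, had a median of 145.9 FPKM. The levels of the subunits are relative RNA abundances per length, not amounts of protein.

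Ndufb8 and Ndufa4 were among the genes at the highest levels. Ndufb8, in the distal membrane arm, measured 424.48, 321.21 and 319.15 FPKM (knockout) and 355.54, 284.22 and 353.67 FPKM (wild type). Knockout library 1 was the highest and wild-type library 2 the lowest on the FPKM scale, and the groups overlapped. Ndufa4 measured 470.19, 349.67 and 357.40 FPKM (knockout) and 356.76, 278.20 and 355.70 FPKM (wild type). The groups overlapped for Ndufa4 too, and its knockout mean of 392.4 FPKM ranked first of the 40 genes.

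At the other end of the FPKM scale stood Ndufa11b, Ndufa4l2 and Ndufa11. Ndufa4l2 measured 11.80, 8.03 and 8.01 FPKM (knockout) and 14.77, 7.22 and 11.92 FPKM (wild type), and so far below Ndufa4 in each library. Wild-type library 2 held its lowest value and wild-type library 1 its highest. Ndufa11 measured 45.16, 31.96 and 31.90 FPKM (knockout) and 39.35, 29.17 and 35.99 FPKM (wild type).

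When the 40 genes were ordered by their wild-type means, 36 of the 39 neighbouring pairs had overlapping wild-type ranges. Only Ndufa1 over Ndufs4, Ndufa11 over Ndufa4l2 and Ndufa4l2 over Ndufa11b were apart. The order in the knockout was nearly the same. No gene moved by more than 4 places, and the only one that moved by more than 3 was Ndufb5, from place 12 to place 8.

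**Figure D2:**
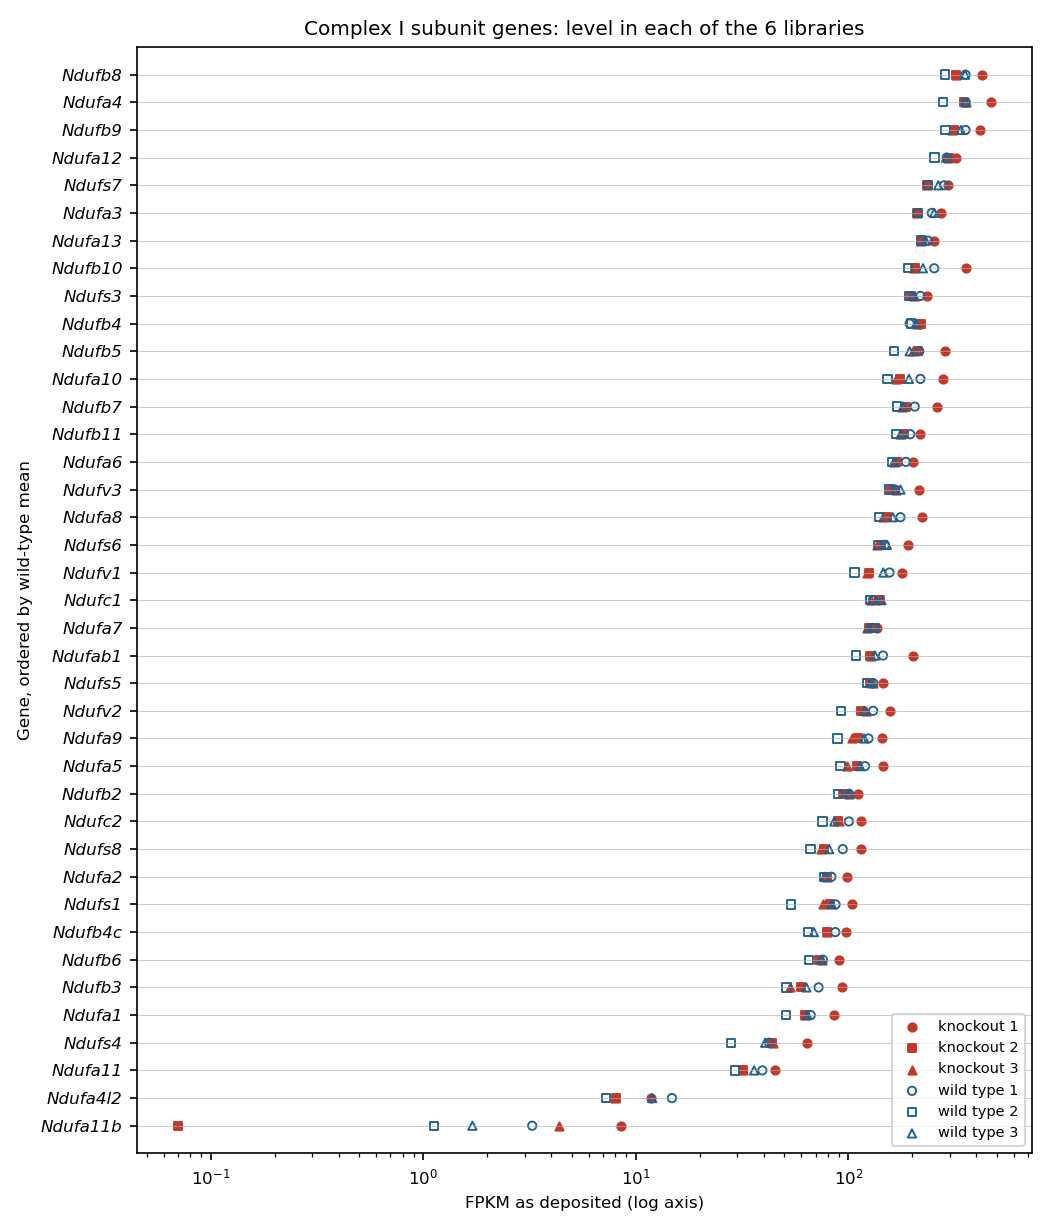
FPKM of 39 of the genes (rows, ordered by wild-type mean; log axis) in 3 knockout libraries (filled red) and 3 wild-type libraries (open blue), 1 point per library. Knockout library 1 is the highest of the 6 in 36 of the genes shown and wild-type library 2 the lowest in 32, while the order of the genes is nearly the same in both groups.

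None of the 40 genes passed an adjusted p of 0.05 between knockout and wild type by edgeR, where 0.00783% of all genes tested did. None had an unadjusted p under 0.05 (3.55% of all genes), and the smallest adjusted p was 0.994. DESeq2 called none of them either (0.047% of all genes), with 1, Ndufs4, at an unadjusted p under 0.05 (2.75% of all genes by that test), and limma on log2(FPKM + 1) called none (0.00967% of all genes), with 0 at an unadjusted p under 0.05 (2.55%). The log2 fold changes of the 36 assigned subunits ran from -0.12 for Ndufa3 to 0.36 for Ndufs4. Over the 40 genes the median was 0.046, or 1.03-fold, beside 0.0046 over all genes tested.

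The data bound these differences closely. The median SE was 0.12 on the log2 scale, against 0.17 over all genes tested, and 38 of the 40 SEs were under 0.2. For 37 of the 40 genes (92.5%) the 95% interval lay wholly within a 1.5-fold change in either direction, which held for 57.4% of all genes tested. The 3 exceptions were Ndufs4, Ndufa4l2 and Ndufa11b. The median SD of log2 CPM (log2 of depth-scaled counts after TMM) within groups was 0.13 for the 40 genes and 0.20 for all genes tested. Genes read at a similar depth, the 3511 between 4.84 and 7.79 log2 CPM, had a median of 0.14.

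More of the 40 had a higher than a lower mean in the knockout, 29 against 11, where 51.1% of all genes tested were higher. This split turned on single libraries and on scaling. Without wild-type library 2 it was 17 against 23 and the median log2 fold change -0.031, leaving out knockout library 1 gave 24 against 16, and leaving out wild-type library 3 gave 35 against 5. With library totals in place of TMM it was 36 against 4, at a median of 0.12 for the 40 genes and 0.075 for all genes. The groups did not overlap in log2 CPM for 2 of the 40, Ndufs4 and Ndufb5, both higher. Of all genes tested 9.18% did not overlap, and 4.67% did so with the knockout higher.

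**Figure D3:**
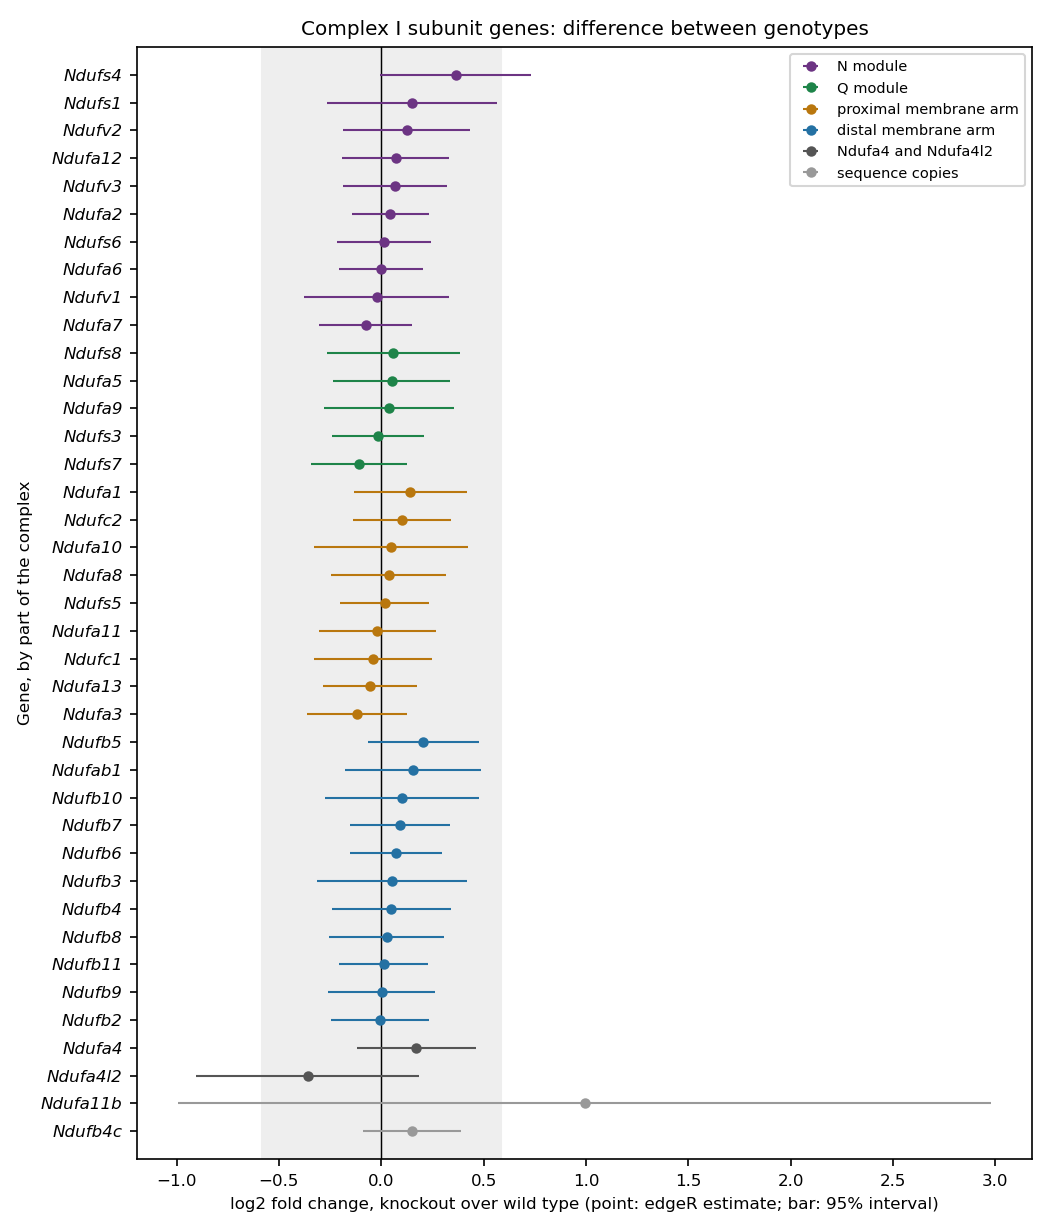
Log2 fold change of 39 of the genes, knockout over wild type (points, edgeR estimates; bars, 95% intervals), grouped by part of the enzyme; the grey band marks changes under 1.5-fold. Intervals of 36 of the genes shown lie within the band, and those of Ndufs4, Ndufa4l2 and Ndufa11b reach out of it.

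In the N module, which takes up NADH, 7 of 10 subunits had a higher mean in the knockout and 0 passed the threshold (median log2 fold change 0.056). Ndufs4, an accessory subunit that helps to hold the N module on the enzyme and whose loss causes a Leigh-like encephalopathy in mice, had the smallest p of the 40 genes. It measured 63.51, 43.62 and 43.98 FPKM (knockout) and 42.37, 28.04 and 40.56 FPKM (wild type). Its gene lies on chromosome 13 (114287795 to 114388258, minus strand), with no overlapping gene. The groups did not overlap, but knockout library 2 lay only just above wild-type library 1. Its fitted difference was 0.36 on the log2 scale (SE 0.16, 95% interval -0.0059 to 0.73), or 1.29-fold, with an unadjusted p of 0.0529 and an adjusted p of 0.994 in edgeR's test. With each library left out in turn this difference ran from 0.21 (leaving out wild-type library 2) to 0.48 (leaving out wild-type library 3). The unadjusted p was 0.120 and 0.0328 in these fits, and the edgeR adjusted p stayed above 0.05 in each of the 6.

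The 3 core subunits of the N module had smaller fold changes, and 0 passed. Ndufv1, which binds NADH and the flavin, measured 177.74, 125.28 and 122.39 FPKM (knockout) and 156.03, 106.92 and 145.90 FPKM (wild type), a log2 fold change of -0.023 (SE 0.15). Ndufv2, an iron-sulfur subunit beside it, measured 157.00, 114.05 and 120.84 FPKM (knockout) and 130.72, 92.37 and 118.68 FPKM (wild type), a log2 fold change of 0.12 (SE 0.13). Ndufs1, the largest subunit and the carrier of several iron-sulfur clusters, measured 104.28, 81.66 and 75.75 FPKM (knockout) and 87.00, 53.48 and 83.48 FPKM (wild type), a log2 fold change of 0.15 (SE 0.18). Wild-type library 2 was the lowest in all 3, and the groups overlapped. After Ndufa11b and Ndufa4l2, Ndufs1 had the largest SD of log2 CPM within groups of the 40 genes, 0.26, and without wild-type library 2 its log2 fold change was -0.032. Ndufa7, an accessory subunit, measured 136.64, 125.59 and 122.61 FPKM (knockout) and 130.04, 133.68 and 124.06 FPKM (wild type), a log2 fold change of -0.076 (SE 0.098), with groups that overlapped.

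In the Q module, which reduces ubiquinone, 4 of 6 subunits had a higher mean and 0 passed (median log2 fold change 0.036). Ndufs7, which carries the last iron-sulfur cluster before ubiquinone, measured 295.16, 234.10 and 234.02 FPKM (knockout) and 281.96, 236.21 and 264.71 FPKM (wild type), a log2 fold change of -0.11 (SE 0.10). Knockout library 1 was the highest and the other two knockout libraries were the lowest on the FPKM scale. Ndufs8, another iron-sulfur subunit, measured 114.43, 76.89 and 74.17 FPKM (knockout) and 94.03, 66.30 and 81.18 FPKM (wild type), a log2 fold change of 0.059 (SE 0.14). Ndufs3, which sits between the iron-sulfur subunits and the Q site, measured 234.97, 197.70 and 202.49 FPKM (knockout) and 218.03, 193.67 and 200.56 FPKM (wild type), a log2 fold change of -0.014 (SE 0.096). All 3 of these core subunits had overlapping groups.

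In the proximal membrane arm 5 of 9 subunits had a higher mean and 0 passed (median log2 fold change 0.016). Ndufa3, a small membrane subunit, measured 271.54, 211.11 and 209.33 FPKM (knockout) and 246.61, 212.18 and 253.15 FPKM (wild type). Its log2 fold change of -0.12 (SE 0.10) was the lowest among the 36 assigned subunits. Ndufa13, also known as GRIM-19, measured 252.28, 222.47 and 218.55 FPKM (knockout) and 236.91, 219.39 and 230.38 FPKM (wild type), a log2 fold change of -0.055 (SE 0.099). The X-linked Ndufa1, which is needed early in assembly, measured 85.78, 62.72 and 62.67 FPKM (knockout) and 66.48, 50.73 and 64.01 FPKM (wild type), a log2 fold change of 0.14 (SE 0.12). Groups overlapped for these 3 genes and for the other 6.

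In the distal membrane arm 10 of 11 subunits had a higher mean and 0 passed (median log2 fold change 0.051). Ndufb5 measured 283.22, 212.85 and 200.55 FPKM (knockout) and 215.40, 163.99 and 194.05 FPKM (wild type). Its gene lies on chromosome 3 (32736990 to 32751566, plus strand). Its groups overlapped in FPKM but not in log2 CPM, with a log2 fold change of 0.21 (SE 0.12, unadjusted p = 0.117, edgeR adjusted p = 0.994). Mrpl47, a gene of the mitochondrial ribosome, overlaps Ndufb5 on the other strand. The fitted log2 change was 0.026 for Ndufb8 (SE 0.12) and 0.15 for Ndufab1, the mitochondrial acyl carrier protein (SE 0.14). Among the genes that match by name only, the fitted log2 change was 0.17 for Ndufa4 (SE 0.12) and for Ndufa4l2 -0.36 (SE 0.23, 95% interval -0.90 to 0.19), or -0.59 without wild-type library 2. Shmt2 overlaps Ndufa4l2 on the other strand.

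The level of the whole family differed between single libraries. The mean log2 CPM of the 40 genes stood apart from the 6-library mean by 0.11, -0.058 and 0.023 in knockout libraries 1, 2 and 3 and by 0.036, -0.20 and 0.087 in wild-type libraries 1, 2 and 3. Over the 36 assigned subunits alone the deviations were 0.073, 0.0034 and -0.0026 in the knockout and 0.010, -0.18 and 0.092 in wild type. The group means of the 36 differed by 0.049, while the SD within wild type was 0.14. Wild-type library 2 had the lowest log2 CPM in 28 of the 40 genes, where it was the lowest for 22.7% of all genes tested. Knockout library 1 was the highest in 16 of the 40 (29.9% of all genes) and wild-type library 3 in 15 (8.63%). Wild-type library 2 stood low in each module, by 0.20 in the N module, 0.19 in the Q module, and 0.15 and 0.17 in the proximal and distal membrane arm (values below the 6-library mean). All 40 genes together took 0.60%, 0.46% and 0.45% of the expected counts (knockout) and 0.51%, 0.40% and 0.48% (wild type), or 0.50% ± 0.084 against 0.46% ± 0.055 (SD, n = 3 each). The total here is over the listed genes, which held no mitochondrially encoded complex I subunit under the symbols searched.

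Wild-type library 2 was also the lowest in the other respiratory complexes. Its deviation was -0.38 for complex II, -0.29 for complex III, -0.23 for complex IV and -0.24 for complex V. Knockout library 1 was the highest in complexes II to V, by 0.22, 0.17, 0.18 and 0.13 over the 6-library mean. No tested member of these complexes passed the threshold: 0 of 4 in complex II, 0 of 9 in complex III, 0 of 14 in complex IV and 0 of 17 in complex V, with 0 at an unadjusted p under 0.05. Their median log2 fold changes were 0.086, 0.076, 0.059 and 0.074. Sdhd, a membrane anchor of succinate dehydrogenase, had one of 0.15 (SE 0.13), Uqcrc2, a core protein of complex III, of 0.21 (SE 0.19), Cox7b, a subunit of cytochrome c oxidase, of 0.20 (SE 0.15) and Atp5s, a coupling factor of ATP synthase, of 0.28 (SE 0.14).

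Fibre type varied between the same libraries. The 12 slow fibre genes are contractile and calcium-handling genes of oxidative type I fibres, with myoglobin (Mb) also listed. They stood at 1.92, 1.48 and -2.20 (knockout) and at 0.60, -2.23 and 0.43 (wild type) from the 6-library mean. Knockout library 3 and wild-type library 2 were the lowest in slow fibre genes. The 36 complex I subunits stood at -0.0026 and -0.18 in these libraries. Complexes II to V stood at -0.043, -0.027, -0.089 and -0.0053 in knockout library 3. Fast fibre genes deviated by -0.78 in knockout library 1 and by -0.088 to 0.25 in the other 5. When the level of slow fibre genes entered the fit as a covariate, 0 of the 40 genes passed, 22 had a log2 fold change above 0 and 18 below, and the median log2 fold change was 0.0051. The part of fibre type in the differences between libraries was not tested.

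Markers of other cell types also moved with single libraries. The 5 adipocyte markers summed to 88.9 to 217.5 FPKM in the knockout and 77.0 to 146.6 FPKM in wild type. Most of each sum was Fabp4, at 82.35 to 199.94 FPKM (knockout) and 73.99 to 143.57 FPKM (wild type). Adipoq was at 10 FPKM in knockout library 1 and at most 2.99 FPKM elsewhere. The 4 tested adipocyte markers all had a log2 fold change above 0 (median 1.21), and 0 passed the threshold. The knockout libraries did not share this direction. Knockout library 2 was the lowest of all 6 for Adipoq, Cidec and Plin1, at 0.78, 0.46 and 0.24 FPKM, though not for Fabp4. Adipoq had an unadjusted p of 0.0447 and an adjusted p of 0.994 in edgeR's test. The 3 Schwann cell markers summed to 38.1 to 235.8 FPKM in the knockout and 15.9 to 148.4 FPKM in wild type. The 4 macrophage and leukocyte markers summed to 14.2 FPKM in knockout library 1, to 4.17 and 5.45 FPKM in the other knockout libraries and to 4.22 to 5.83 FPKM in wild type. All 4 had a log2 fold change above 0 (median 0.72), and 0 passed the threshold. Adgre1 among them had an unadjusted p of 0.0431 in edgeR's test. The 3 endothelial markers summed to 43.6 to 107.2 FPKM in the knockout and 44.7 to 79.2 FPKM in wild type. Their mean log2 CPM was lowest in wild-type library 2, the library lowest in complex I, at -0.51 from the 6-library mean, with knockout library 3 next at -0.46. In wild-type library 2 the fibro-adipogenic, Schwann, tendon and smooth muscle markers were at -0.53, -1.53, -0.60 and -0.36 and the erythroid markers at 0.41. Knockout library 1 was at 0.35, 1.51, 0.10, 0.69 and 0.87 in the same order. Ucp1, the defining marker of brown fat, was listed at 0 in all 6 libraries. In bulk muscle, fewer cells of a type and less RNA per cell cannot be told apart, and the part of these markers in the levels of complex I was not tested.

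**Figure D4:**
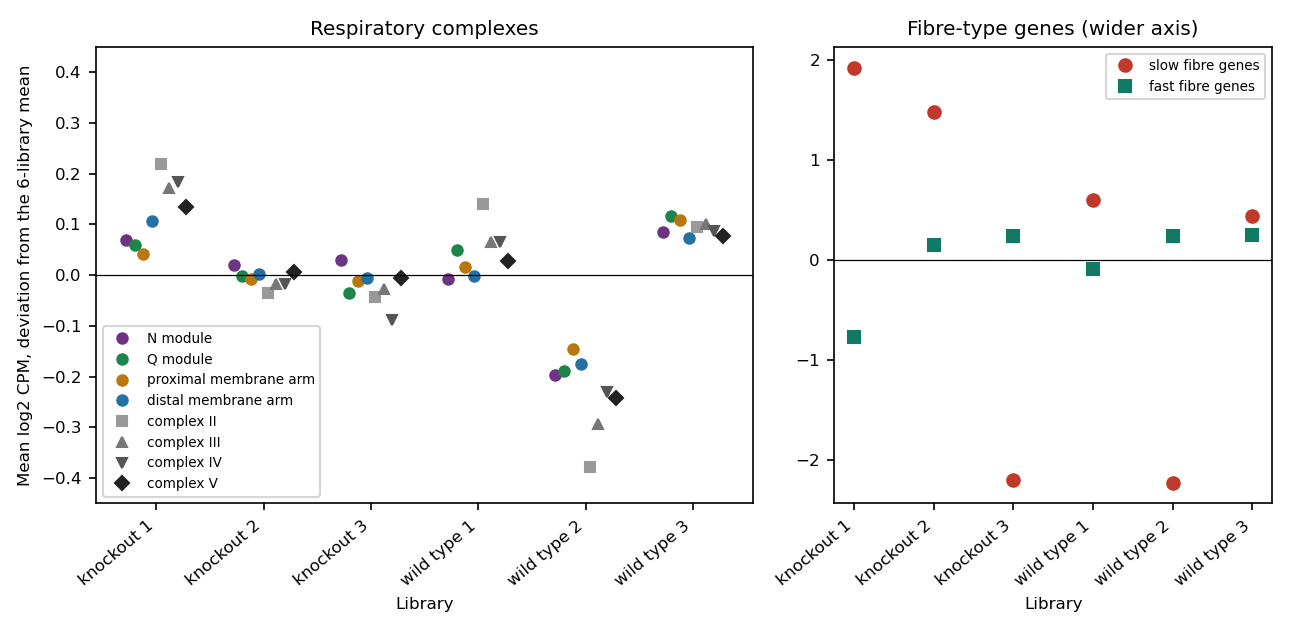
Mean log2 CPM of each gene group per library, as the deviation from the mean of the 6 libraries; left, the 4 parts of complex I and complexes II to V, and right, slow and fast fibre genes on a wider axis. Wild-type library 2 is the lowest for all 8 groups on the left. On the right, slow fibre genes are lowest in wild-type library 2 and knockout library 3.

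Of 18 tested assembly factors, proteins that help complex I to form without staying in it, 13 had a higher mean in the knockout and 0 passed, with 0 at an unadjusted p under 0.05 (median log2 fold change 0.029). Timmdc1, a membrane-arm assembly factor, measured 17.18, 12.60 and 12.13 FPKM (knockout) and 12.32, 11.35 and 12.28 FPKM (wild type), a log2 fold change of 0.13 (SE 0.090). The fitted log2 change was -0.10 for Foxred1 (SE 0.091) and 0.11 for Dmac1, a factor of the distal membrane arm (SE 0.10). Of 14 regulators of mitochondrial genes 0 passed (median log2 fold change 0.13). Tfam, which packages and transcribes mitochondrial DNA, measured 10.89, 9.39 and 10.61 FPKM (knockout) and 8.37, 8.61 and 9.02 FPKM (wild type), a log2 fold change of 0.22 (SE 0.10). Nrf1, a transcription factor of respiratory genes, measured 3.81, 3.60 and 3.84 FPKM (knockout) and 4.04, 4.96 and 4.35 FPKM (wild type), a log2 fold change of -0.21 (SE 0.14). For both Tfam and Nrf1 the groups were apart in FPKM but overlapped in log2 CPM. Esrrg, an oestrogen-related receptor of oxidative fibres, measured 10.27, 3.99 and 2.25 FPKM (knockout) and 4.21, 0.86 and 3.27 FPKM (wild type), a log2 fold change of 0.83 (SE 0.60).

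The promoters of the 40 genes were searched for letters known from regulators of respiratory genes. RefSeq start sites on GRCm38.p6 gave a promoter of 250 bases before to 50 bases after the start for 33 of the 40 genes and for 10139 of the genes tested. In all, 9 spellings were searched on both strands, some of them shorter or longer forms of another. The Nrf1 site with its variable base open, named here and shown by its matches, stood in 7 of the 33 promoters (21.2%) and in 11.2% of the promoters of tested genes. Its exact palindromic form stood in 1 (3.03% against 2.27%) and the short form GCATGCGC in 3 (9.09% against 5.79%). The ETS letters CCGGAAG, which GABPA binds, stood in 4 (12.1% against 19.4%) and ACCGGAAGT in 1 (3.03% against 2.42%). TCAAGGTCA, the oestrogen-related receptor site, stood in 0 (0.325% of tested genes) and its part AAGGTCA in 3 (9.09% against 3.94%). CCAAT stood in 10 (30.3% against 42.6%). A match is a description of letters, not evidence of binding.

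The Nrf1 letters are shown with 30 bases of their setting, on the strand of the gene, with the match in capitals (RefSeq, GRCm38.p6). They began before the start site in 6 of the 7 promoters and stood on the gene's strand in 4. Among the windows shown, the Ndufs5 match lay on the opposite strand, so its capitals are the reverse complement of the letters searched. Ndufa8 is at chr2:36049349-36049378, Ndufs6 at chr13:73328479-73328508, Ndufa11 at chr17:56717692-56717721 and Ndufs5 at chr4:123718265-123718294, all on the minus strand but Ndufa11:
Ndufa8: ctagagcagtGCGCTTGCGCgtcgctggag
Ndufs6: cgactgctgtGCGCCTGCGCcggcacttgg
Ndufa11: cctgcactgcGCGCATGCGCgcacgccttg
Ndufs5: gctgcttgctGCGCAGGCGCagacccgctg

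AAGATGGC, the core of the YY1 site, stood in 7 of the 33 promoters (21.2%), against 5.19% of the promoters of tested genes. All 7 matches lay on the gene's strand and began 22 to 38 bases after the start site. In all 7 the ATG inside the match was the annotated start codon, so the same letters also encode the first amino acids of the subunit. Of the 519 other tested genes with this match, it held the annotated start codon in 154 (29.7%). The windows of 5 of the 7 subunits show the shared placement (match in capitals, RefSeq, GRCm38.p6; Ndufs4 at chr13:114388045-114388074, Ndufs7 at chr10:80249462-80249491, Ndufb8 at chr19:44555393-44555422, Ndufc1 at chr3:51408915-51408944, Ndufa3 at chr7:3617384-3617413; Ndufs7 and Ndufa3 on the plus strand, the others on the minus strand):
Ndufs4: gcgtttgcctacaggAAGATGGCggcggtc
Ndufs7: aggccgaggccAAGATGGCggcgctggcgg
Ndufb8: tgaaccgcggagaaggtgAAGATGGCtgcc
Ndufc1: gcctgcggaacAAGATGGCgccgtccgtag
Ndufa3: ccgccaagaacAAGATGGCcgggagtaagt

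Between genotypes these 5 did not share a direction. Ndufs4 had the highest log2 fold change of the 36 assigned subunits, 0.36, and Ndufa3 the lowest, -0.12. Those of Ndufs7, Ndufc1 and Ndufb8 were -0.11, -0.041 and 0.026. Ndufs6 and Ndufa9, which hold the match but are not shown, were at 0.015 and 0.038, also with intervals that included 0.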

How the data were processed

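Each of the 6 libraries had 1 deposited table of 19458 genes. The deposited counts are expected counts per gene, not normalized (26.2% to 27.5% of values are not whole), and the deposited expression values are FPKM computed by the authors. HISAT2 2.0.4, Bowtie2 2.2.5, RSEM 1.2.12 and GRCm38 are named in the submitters' processing notes; roles, annotation and strand setting: not given in the sources used here. RSEM divides reads that fit several genes.

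Expected counts were rounded, filtered with filterByExpr (minimum count 10), scaled by TMM and tested in edgeR 4.0.16 under R 4.3.3 (glmQLFit and glmQLFTest; biological coefficient of variation 18.8%), two-sided, adjusted by Benjamini-Hochberg over all 12774 genes, threshold 0.05, with no covariate. SE is the absolute log2 fold change over the square root of F. Log2 CPM used a prior count of 2. No 2 libraries of a group agreed within counting noise (chi-square per degree of freedom at least 12.9). The members, lists, tests and motifs were chosen with earlier results of these data known. Per-library values were given for the 5 members with the smallest p per direction, the 3 highest and 3 lowest, the 7 core subunits, Ndufa4, Ndufa4l2 and the 3 most variable; 1 gene that this rule names stays in every count but is not reported here on its own. Alternatives were DESeq2 1.42.0, its size factors, no filter, each library left out, a replicate block, limma 3.58.1 on log2(FPKM + 1) and log2(FPKM + 0.1), the slow-fibre level as covariate and an adjusted p of 0.10; added later were library totals without TMM and summed copies. The tests were tested on simulated data.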

Additional observations from a re-analysis of the deposited data

How the results depend on the processing

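No complex I gene passed the threshold in any of the alternatives run, and Tmem182 kept its direction in all of them, at -5.26 to -4.75 with 1 library left out. Over all genes DESeq2 called 6 and the slow-fibre covariate 2, against 1 by edgeR, and leaving out 1 library gave 0 to 1; the cause was not tested. The median log2 fold change of the 40 genes ran from -0.031 to 0.11 with 1 library left out. On log2(FPKM + 1) the deviation of knockout library 1 was 0.34 instead of 0.11.

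Of the 18 subunit genes with full values, 10 kept their direction in every alternative, and 29 of 268 values changed sign. With library totals, limma on log2(FPKM + 1) and limma on log2(FPKM + 0.1), the log2 fold change was 0.060, 0.051 and 0.052 for Ndufa11, 0.011, 0.012 and 0.012 for Ndufa13, 0.053, 0.050 and 0.051 for Ndufs3 and 0.057, 0.054 and 0.054 for Ndufv1. Ndufa11b was at -0.059 with log2(FPKM + 0.1) and Ndufb8 at -0.0018 with the slow-fibre covariate. With 1 library left out, Ndufa11 ran from -0.12 to 0.042, Ndufb8 from -0.063 to 0.11, Ndufs1 from -0.032 to 0.28, Ndufs3 from -0.046 to 0.013, Ndufs8 from -0.054 to 0.13 and Ndufv1 from -0.16 to 0.068.

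The groups share replicate numbers. Deviations of same-numbered libraries correlated at 0.52, 0.18 and -0.12 for numbers 1, 2 and 3, so the numbers were not taken as pairs, and knockout library 3 correlated best with wild-type library 2 (0.43). With a replicate block 0 of the 40 genes and 1 of all genes passed, and Ndufs4 had a log2 fold change of 0.38 (unadjusted p = 0.0205, edgeR adjusted p = 0.845). Over all alternatives the unadjusted p of Ndufs4 ran from 0.0205 to 0.123. That of Ndufa4l2 was 0.00523 without wild-type library 2 (edgeR adjusted p = 0.99997). The smallest change that 3 libraries per group could have shown in a single subunit was not measured.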
